A study of Equus caballus with 18 samples.

Results

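Subgroups B1 and B2 are 2 of the 6 subgroups into which the study divided 18 skeletal muscles of 1 male Jeju horse, a breed of Jeju island in South Korea. The members were taken by muscle name, and 7 of the 18 libraries belong to them. B1 holds Semitendinosus, Gluteus superficialis, Biceps femoris vertebral, Biceps femoris middle and M. Pectoralis major, and B2 holds M.omohyoideus and Extensor digitorum lateralis. The muscle labelled M. Pectoralis major has another name elsewhere in the study's materials, and the label is used here. All muscles came from the same carcass with no treatment named, and the labels give no age. Each of the 18 sites sampled, called muscles here, gave 1 library. Biceps femoris vertebral and Biceps femoris middle are regions of the same muscle, so the 5 libraries of B1 come from 4 muscles, and a further region, Biceps femoris caudal, is outside B1 and B2. The libraries of a subgroup stand in for replicates, and technical error cannot be told apart from differences between muscles.

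The subgroups were chosen by the study from the read counts of these same libraries, through k-means clustering. The differences between B1 and B2 were therefore part of what chose the members, and they are given as a description, with log2 fold changes (log2FC) and standard errors but no p-values. The question addressed is how far the B2 muscles differ from the B1 muscles and whether both B2 libraries show the same difference.

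Skeletal muscles are mixtures of slow and fast fibres, which differ in their contractile proteins and in their use of oxidative or glycolytic metabolism. Semitendinosus, biceps femoris and gluteus superficialis move the hindlimb, and the pectoral muscles connect the forelimb with the trunk. The omohyoideus is a strap muscle of the neck that acts on the hyoid, and the extensor digitorum lateralis extends the digit. In bulk RNA of a whole muscle, fewer fibres of a type and less RNA per fibre cannot be told apart.

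The deposited counts are given per Ensembl identifier, and none of the 25239 identifiers could be paired with a gene name from a table used here. Genes are therefore described by their levels and by where each library lies, and 4 of them are given by identifier. The identity of the libraries as skeletal muscle and their content of other cell types were not checked, since such markers need gene names.

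Over the 18 libraries, 31395013 to 50508515 reads were counted on genes, and both ends of this range lie in these subgroups, with the omohyoideus lowest and the pectoralis major highest. For the extensor digitorum lateralis the total was 45124868. In the 7 libraries the most abundant gene took 24.6% to 39.1% of the counts. The factors of TMM, the edgeR normalization for such differences in composition, were 1.41 in the omohyoideus and 0.816 in the extensor digitorum lateralis, against 0.844 to 1.39 in B1.

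The B2 muscles lay farther from each other than any 2 muscles of B1. The Euclidean distance of log2 CPM (read counts scaled to a common library size) over 13755 tested genes was 103.5 between the omohyoideus and the extensor digitorum lateralis. Distances between 2 muscles of B1 ranged from 64.1 to 92.2, with a median of 71.5 over 10 pairs. The clustering gathered libraries that were alike in these same counts, so the distances within B1 are no neutral yardstick. The omohyoideus was nearest to the gluteus superficialis of B1, at 74.6, and next to the pectoralis major of B1, at 76.4. Its distances to the other B1 muscles were 85.3 to the biceps femoris middle, 90.3 to the semitendinosus and 101.7 to the biceps femoris vertebral. Every B1 muscle was thus nearer to the omohyoideus than the extensor digitorum lateralis was.

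Farther out lay the extensor digitorum lateralis. Its distances to the B1 muscles ranged from 108.1 (gluteus superficialis) to 119.6 (biceps femoris vertebral). Its nearest library in group B was the extensor digitorum longus of subgroup B3, at 90.8, followed by the omohyoideus. Subgroup B3 holds this muscle and the extensor carpi radialis, which was at 105.2 from the extensor digitorum lateralis. The omohyoideus was at 89.0 and 94.2 from these B3 muscles.

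**Figure D1:**
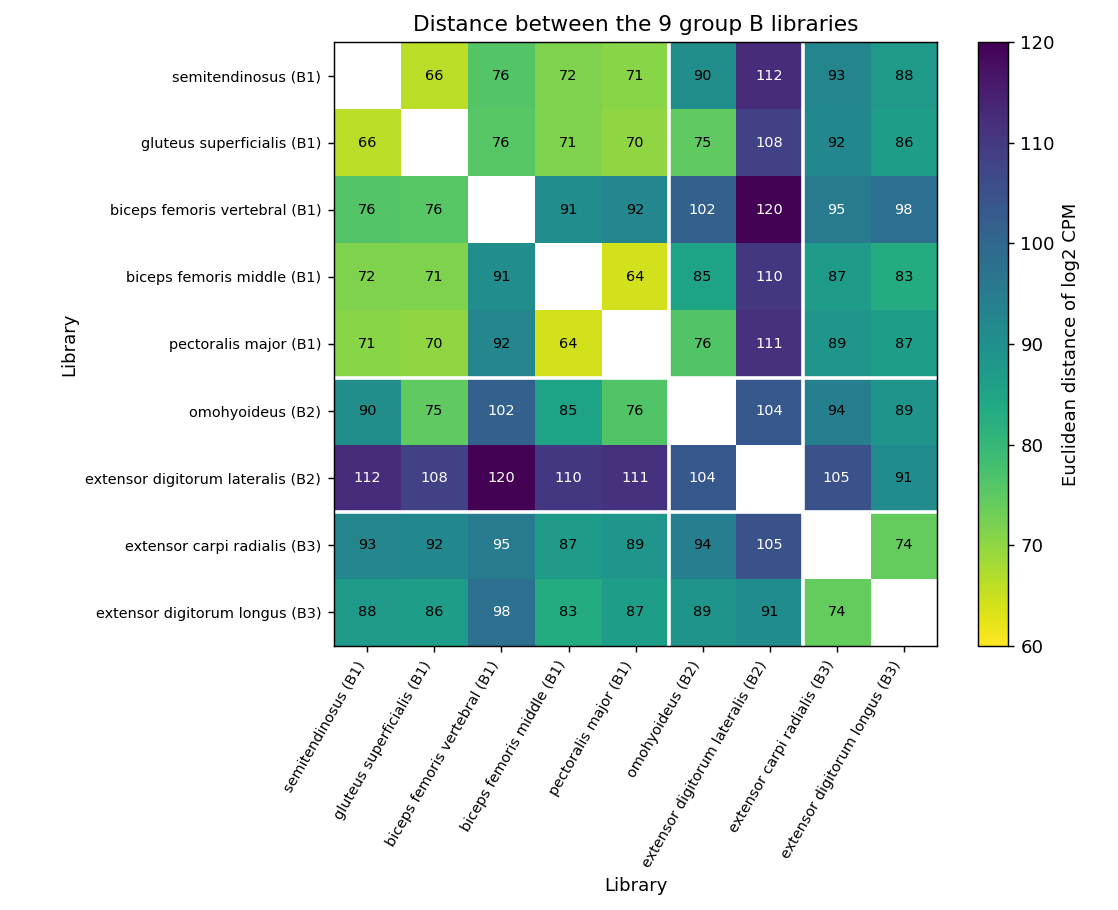
Euclidean distance of log2 CPM over 13755 genes between the 9 libraries of group B, with rows and columns ordered by subgroup and white lines between subgroups. The distance of 103.5 between the B2 muscles exceeds the largest distance between B1 muscles, 92.2.

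The number of genes that differed at least 2-fold was also counted for each pair of libraries. Between the B2 muscles 2492 genes (18.1%) differed by this much. Between 2 muscles of B1, 856 to 2079 genes did (6.22% to 15.1%). Between the omohyoideus and the B1 muscles the number was 1101 to 2342, which overlaps the range within B1. Between the extensor digitorum lateralis and the B1 muscles it was 2712 to 3319, all above that range. The extensor digitorum lateralis differed in fewer genes from the B3 muscles, 1897 from the extensor digitorum longus and 2112 from the extensor carpi radialis, than from the omohyoideus. By this count both B3 muscles were thus nearer to it than its partner in B2, whereas by distance the omohyoideus lay between them.

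Each B2 library was then compared with the range of the 5 B1 libraries, gene by gene. The omohyoideus was at least 2-fold above the highest B1 library for 115 genes (0.836% of those tested) and at least 2-fold below the lowest for 78 (0.567%). The extensor digitorum lateralis was above for 425 genes (3.09%) and below for 493 (3.58%). Both B2 libraries were above for 61 genes (0.443%) and both below for 32 (0.233%), and they lay on opposite sides for 3 genes (0.0218%). The genes on which both agree were thus 93 of the 193 genes (1.40% of those tested) outside the range in the omohyoideus, and 93 of the 918 (6.67%) in the extensor digitorum lateralis. With no TMM factor, 318 genes were outside the range in the omohyoideus and 1028 in the extensor digitorum lateralis, with 70 above and 14 below in both. The filter on low counts moved the counts for both libraries as well. They were 25 above and 18 below among genes with at least 10 counts in each library fitted, and 199 and 77 with no filter. With single B1 or B3 libraries left out, both were above for 67 to 79 genes and below for 34 to 52. With a prior count of 5 in place of 0.5 the numbers were 45 and 21.

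At any distance, the omohyoideus was above the B1 range for 2802 genes (20.4%) and below it for 2953 (21.5%), together 41.8%. The extensor digitorum lateralis was above for 3964 (28.8%) and below for 3963 (28.8%), together 57.6%. The B2 libraries then lay both above the B1 range for 1309 genes (9.52%), both below it for 1320 (9.60%) and on opposite sides of it for 1026 (7.46%). At 4-fold, the omohyoideus was above for 40 genes (0.291%) and below for 20 (0.145%), together 0.436%. The extensor digitorum lateralis was above for 85 (0.618%) and below for 91 (0.662%), together 1.28%. Both were above for 24 genes (0.174%), both below for 5 (0.0364%) and on opposite sides for 0.

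The B3 muscles, compared with B1 in the same way, lay between the B2 muscles in their total of genes outside the range. The extensor carpi radialis was at least 2-fold above all B1 libraries for 78 genes (0.567%) and below for 243 (1.77%). The extensor digitorum longus was above for 126 (0.916%) and below for 189 (1.37%). These comparisons share the 5 B1 libraries, and the differences between them were not tested.

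**Figure D2:**
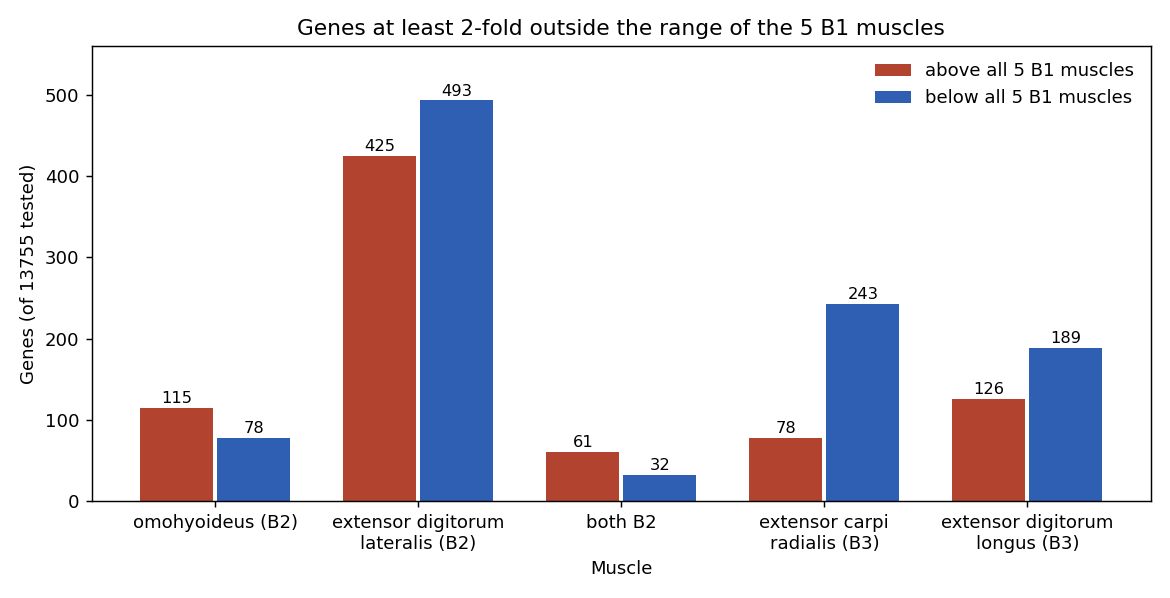
Number of genes, of 13755 tested, at least 2-fold above or below all 5 B1 muscles in each B2 muscle, in both B2 muscles and in each B3 muscle. The extensor digitorum lateralis has 425 genes above and 493 below, against 115 and 78 in the omohyoideus and 61 and 32 in both.

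Genes outside the range by at least 2-fold were found at all levels of expression. Among 442 genes with a mean of 100 CPM or more over the 7 libraries, 12 (2.71%) were outside the B1 range in the omohyoideus and 41 (9.28%) in the extensor digitorum lateralis, with 1 gene above and 4 below in both. Among 3589 genes at 10 to 100 CPM, these numbers were 20 (0.557%) and 176 (4.90%), with 7 above and 3 below in both. Among 6492 genes at 1 to 10 CPM they were 65 (1.0%) and 389 (5.99%), with 21 above and 13 below in both. Among 3232 genes under 1 CPM, where a few reads decide a fold change, they were 96 (2.97%) and 312 (9.65%), with 32 above and 12 below in both. The share was thus highest in the class of lowest expression and next highest in the class of highest expression, in both B2 muscles.

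The subgroups were formed from these same counts, so the test below only lists genes by a threshold. In edgeR's quasi-likelihood test, 132 genes (0.960% of 13755) were differentially expressed genes (DEGs) of B1 vs. B2 (adjusted p under 0.05, with a log2FC beyond 1 in either direction). Of these, 37 (0.269%) were upregulated and 95 (0.691%) downregulated in B1. With no TMM factor 10 were upregulated and 89 downregulated, and DESeq2 called 177 and 237, so the split between directions depends on the scaling and the tool. The upregulated DEGs had log2FC values of 1.01 to 4.85 with a median of 1.43, and the downregulated DEGs of -8.75 to -1.02 with a median of -2.48. Over all genes tested the median log2FC was 0.00.

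Among the DEGs the B2 libraries lay on the same side. For all 37 upregulated genes both B2 libraries were below every B1 library. For 93 of the 95 downregulated genes both were above every B1 library, for 1 gene the omohyoideus was within the B1 range and for 1 gene the extensor digitorum lateralis was. A call in a fit with 2 B2 libraries favours genes in which both differ from B1, so nothing is read from this count.

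The size of the difference varied between the B2 libraries. The extensor digitorum lateralis was farther from the B1 mean than the omohyoideus in 29 of the 37 upregulated and 80 of the 95 downregulated DEGs (78.4% and 84.2%). Over all genes tested it was also the farther one, in 63.3% of them, with a median absolute log2 difference from the B1 mean of 0.45 against 0.29 in the omohyoideus. In the upregulated DEGs the median log2 difference from the B1 mean was -1.31 in the omohyoideus and -1.53 in the extensor digitorum lateralis. In the downregulated DEGs it was 1.67 and 2.65. The B2 libraries differed from each other at least 2-fold in 6 of the 37 upregulated DEGs (16.2%) and 48 of the 95 downregulated DEGs (50.5%), beside 18.1% of all genes tested.

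The position of the B3 muscles was taken for the same genes. Of the 37 upregulated DEGs, the extensor digitorum longus was below every B1 library in 31 and the extensor carpi radialis in 24. Over all genes tested, these muscles were below every B1 library for 20.9% and 22.7%. Of the 95 downregulated DEGs, the extensor digitorum longus was above every B1 library in 71 and the extensor carpi radialis in 46. Over all genes tested, they were above for 22.3% and 23.2%. The DEGs were called against the same 5 B1 libraries, in a fit that includes the B3 libraries, so their shares are given as a description.

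The DEGs spanned mean levels of 0.127 to 420.6 CPM. The upregulated DEGs had a median of 10.5 CPM and the downregulated DEGs of 3.46 CPM, beside 4.12 CPM over all genes tested. Of the 132 DEGs, 16 upregulated and 46 downregulated genes had both B2 libraries at least 2-fold outside the B1 range and no library of the higher group under 10 counts. The 2 largest log2FC values in each direction among these are given by identifier. Their size is what chose them, and where the lower group holds only a few reads the log2FC depends on the prior count of the fit and is no measure of fold.

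ENSECAG00000012172 was the higher of these in expression. In B1 it was at 56.6 CPM in the semitendinosus, 27.1 in the gluteus superficialis, 63.0 in the biceps femoris vertebral, 27.1 in the biceps femoris middle and 38.4 in the pectoralis major. In B2 it was at 2.81 CPM (124 counts) in the omohyoideus and 2.96 CPM (109 counts) in the extensor digitorum lateralis. The B2 libraries were nearly equal, and both lay far below the lowest B1 library. The log2FC was 3.88 (standard error 0.41), with 42.5 ± 16.7 CPM (SD, n = 5) in B1. The B3 muscles were also low, at 4.94 CPM in the extensor carpi radialis and 3.84 CPM in the extensor digitorum longus.

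ENSECAG00000006918 had the largest positive log2FC, 4.85 (standard error 0.84), at levels near the detection limit. Its B1 libraries held 11 (pectoralis major) to 22 (gluteus superficialis) counts. The omohyoideus held 1 count and the extensor digitorum lateralis 0. In B3 the extensor carpi radialis held 5 counts and the extensor digitorum longus 3. The call was lost without the semitendinosus, where the log2FC was 4.75, and without the extensor digitorum lateralis, where it was 4.11.

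ENSECAG00000020355 had the largest negative log2FC, -8.75 (standard error 0.74). In B1 it had 1 count in the biceps femoris middle, 1 in the pectoralis major and 0 in the other 3 muscles. It had 153 counts (3.47 CPM) in the omohyoideus and 280 counts (7.61 CPM) in the extensor digitorum lateralis. Both B2 muscles thus expressed a gene that was almost without reads in B1. In B3 the extensor carpi radialis held 0 counts and the extensor digitorum longus 11.

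ENSECAG00000014103 showed the B2 muscles apart, although both lay above B1. It had 670 counts (15.2 CPM) in the omohyoideus and 14 counts (0.380 CPM) in the extensor digitorum lateralis, a 39.9-fold difference. The B1 libraries held 0 to 2 counts, and both B3 libraries 0. The log2FC was -8.45 (standard error 1.14) and rested on the omohyoideus for its size. Without that library it was -4.09.

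**Figure D3:**
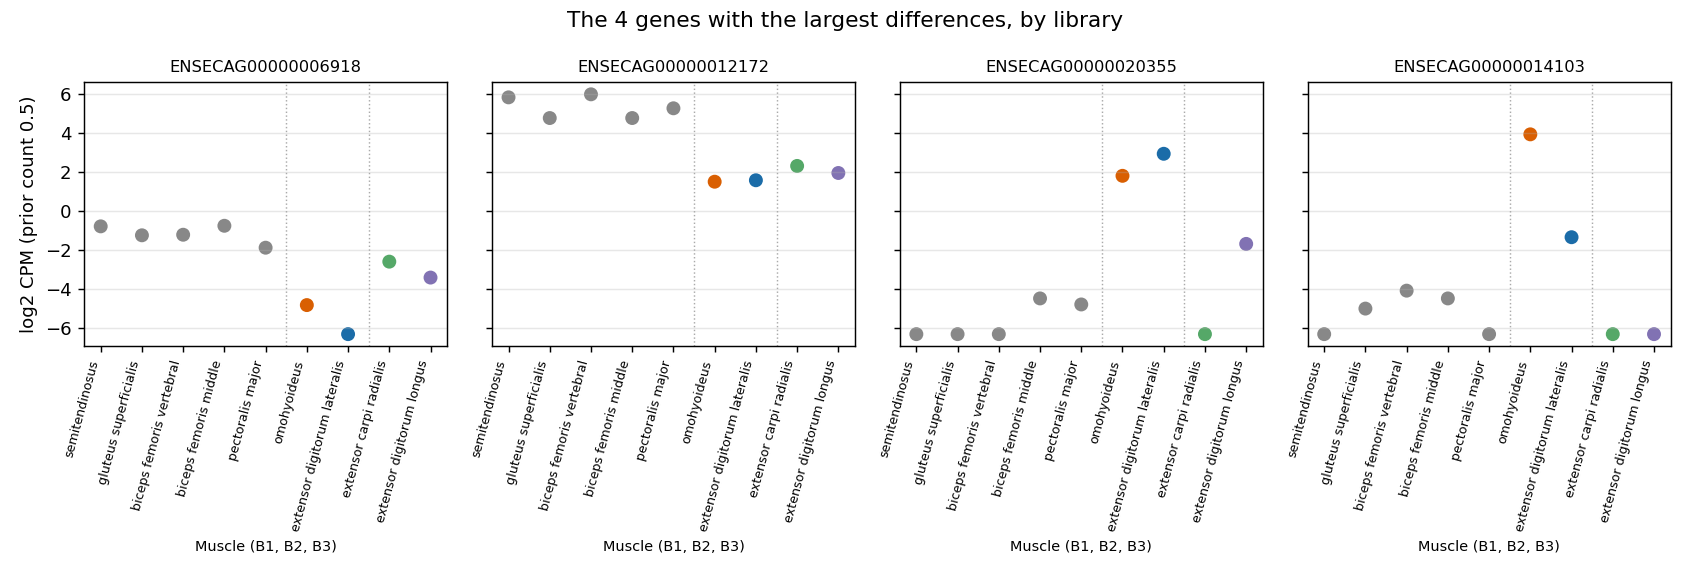
log2 CPM (prior count 0.5) of 4 genes in the 5 B1 muscles (grey), the omohyoideus (orange) and extensor digitorum lateralis (blue) of B2 and the B3 muscles (green, purple). The B2 points nearly coincide for ENSECAG00000012172 and differ 39.9-fold in CPM for ENSECAG00000014103.

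The number of DEGs depended strongly on which B2 library was used. Without the omohyoideus, 1028 genes were DEGs (440 upregulated, 588 downregulated), of which 123 were among the 132. Without the extensor digitorum lateralis, 50 genes were DEGs (9 upregulated, 41 downregulated), of which 31 were among the 132. In these fits the lone B2 library is assumed to vary like the libraries of the other subgroups. Leaving out 1 of the other libraries lowered the number as well. It was 44 without the semitendinosus, 70 without the biceps femoris vertebral, 77 without the biceps femoris middle, 85 without the gluteus superficialis and 88 without the pectoralis major. Without a B3 library, which is not part of the comparison but adds to the estimate of the spread, it was 92 (extensor carpi radialis) or 93 (extensor digitorum longus).

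**Figure D4:**
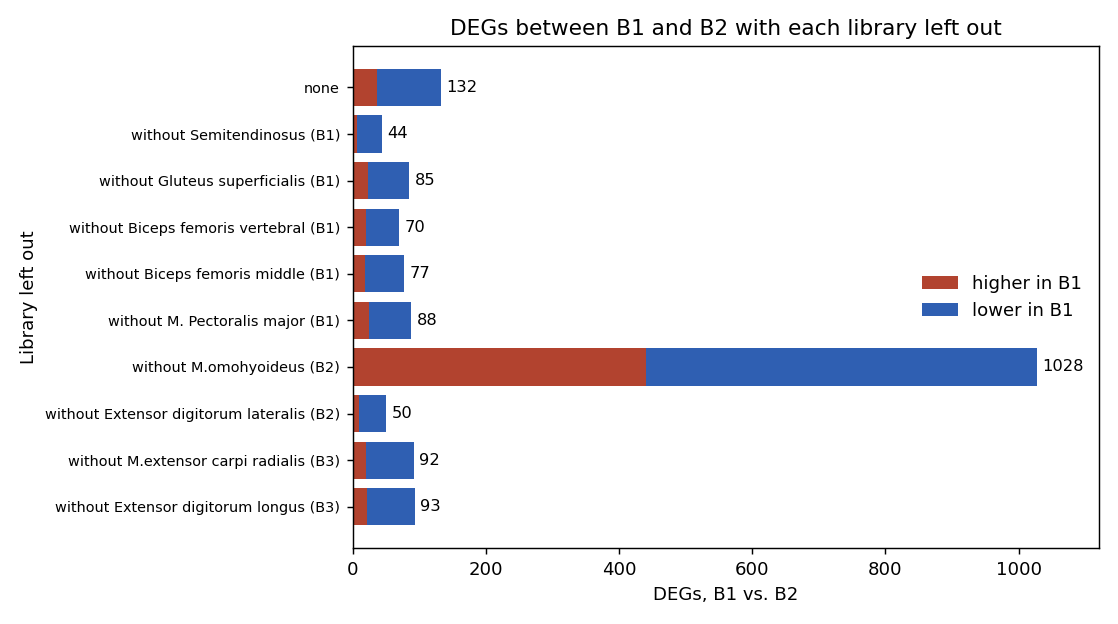
Number of DEGs between B1 and B2, divided by direction, with all 9 group B libraries and with each library left out in turn. The number is 132 with all libraries, 1028 without the omohyoideus, 50 without the extensor digitorum lateralis and 44 without the semitendinosus.

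Over the genes tested, the B2 libraries lay on the same side of the B1 range for 1309 and 1320 genes and on opposite sides for 1026 at any distance. At 2-fold the numbers were 61 and 32 against 3. No value expected without a difference was available for these counts, as both libraries were set against the same B1 libraries. In extent the B2 libraries differed, with 918 genes at least 2-fold outside the B1 range in the extensor digitorum lateralis and 193 in the omohyoideus (1028 and 318 with no TMM factor).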

How the data were processed

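The library of each muscle was made from RNA depleted of ribosomal RNA. STAR 2.5.2b, run in 2 passes, placed the paired reads on EquCab2. The authors deposited raw read counts per Ensembl gene, without normalization. All 18 columns of counts matched a muscle in the labels. Subgroups follow the study's clustering of these libraries. No reads were reprocessed.

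The 9 libraries of group B were fitted together in edgeR 4.0.16 (R 4.3.3) with filterByExpr, TMM, glmQLFit and glmQLFTest, and p-values were adjusted by Benjamini-Hochberg. The standard error was derived from the F statistic. CPM values include the TMM factor, and log2 CPM used a prior count of 0.5. The alternatives were DESeq2 1.42.0, its size factors, other filters, other sets of libraries, a robust fit and leaving out each library. Other software was Python 3.11.15, pandas 2.3.3, scipy 1.17.1 and matplotlib 3.10.9.

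The muscles, rules and lists were chosen with earlier results of these data known. Planned lists of 502 genes in 28 groups, cell type markers included, could not be used, because 0 of the 25239 identifiers matched the RefSeq gene table given for the horse. Gene names shown only in pictures of the study were not used. The rule for named genes therefore gave at most 2 identifiers per direction, those with the largest log2FC among DEGs with both B2 libraries at least 2-fold outside the B1 range and no library of the higher group under 10 counts.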

Additional observations from a re-analysis of the deposited data

Results flagged for a closer look

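The total of counts in the pectoralis major, 50508515, stood apart from the other 4 B1 libraries, which held 36379120 to 38915967 counts. Its gap to the nearest library was 0.82 of the range of B1, above Dixon's 95% critical value of 0.71 for 5 samples. It was the only one of 9 values tested in B1 past that limit. For a single value chance passes the limit in about 1 of 20 groups, and more often for any of 9 values. Counts were scaled to library size in every comparison, and 88 genes were DEGs without this library.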

How the results depend on the processing

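Against 132 DEGs (37 upregulated, 95 downregulated in B1), DESeq2's Wald test called 414 (177 and 237, 129 shared), no filter on low counts 635 (256 and 379), at least 10 counts in every library 68 (21 and 47), a fit of B1 and B2 alone 87 (19 upregulated) and a fit of all 18 libraries 289 (101 and 188). With no TMM factor, chosen after seeing the data, 10 of 99 DEGs were upregulated (10.1% against 28.0%), and the median of all genes was -0.08. DESeq2's size factors gave 142 DEGs and a robust fit 114. With single libraries left out, DEGs numbered 44 to 1028, of which 6 to 440 were upregulated and 38 to 588 downregulated. Upregulated DEGs fell to 20 and 21 without the B3 libraries extensor carpi radialis and extensor digitorum longus.

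Both B2 libraries were at least 2-fold above B1 for 61 genes and below for 32. These numbers were 199 and 77 with no filter, 25 and 18 with at least 10 counts in every library, 1309 and 1320 at any distance and 24 and 5 at 4-fold. Those below numbered 14 with no TMM factor and 21 with a prior count of 5. With single B1 or B3 libraries left out they were 67 to 79 above and 34 to 52 below. No such value exists without a B2 library. A larger fold lowers these numbers by definition, and at the same scaling a B1 range of fewer libraries cannot be wider. The cause of the other shifts was not tested. The distance between the B2 muscles was 1.39 times that from the omohyoideus to its nearest B1 library, 1.42 times with a prior count of 5 and 1.42 times over 1000 abundant genes.

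The 4 genes given by identifier kept their direction under every alternative that tested them. They were chosen with both B2 libraries at least 2-fold outside the B1 range, which left little room for a reversal. Their kept direction is therefore no test of the result. The filter of 10 counts per library retained ENSECAG00000012172 alone of these genes. No paired analysis was possible because each site sampled has 1 library from 1 horse and the replicate numbers only name the sites. Genes under 1 CPM rest on few reads.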
